A study of Mus musculus with 36 samples.

Results

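The comparison was between HSC/MPP and LMPP cells sorted from the central nervous system (CNS) of leukaemic mice, 4 libraries of each, which are 8 of the 36 libraries of the series. They were chosen by their labels for tissue and cell type. The mice carried Kmt2a-AFF1, a fusion gene of infant leukaemia, and overexpressed a microRNA, given as miR-130b in the sample labels and as miR-130a in the design text. All had terminal leukaemia. HSC/MPP were gated as Lin- c-Kit+ Sca-1+ Flt3- and LMPP as Lin- c-Kit+ Sca-1+ Flt3+. Each of the 8 libraries came from a different mouse, so cell types were not paired. The mice also gave bone marrow (BM) libraries of the same cell type. The BM of 4 mice with the same fusion and a scrambled microRNA, which had no leukaemia, gave the control HSC/MPP and LMPP libraries. Ages and the promoters that drive the fusion and the microRNA are not in the labels.

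Haematopoietic stem cells and multipotent progenitors (HSC/MPP) can give rise to all blood lineages. Lymphoid-primed multipotent progenitors (LMPP) express the receptor tyrosine kinase Flt3, have lost most potential for red cells and platelets, and start to transcribe lymphoid genes. Flt3 signalling also drives the formation of dendritic cells, which take up antigen and present it on MHC class II molecules.

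Both microRNAs named for the model are shown because the labels differ on which was overexpressed. The mature sequences (RefSeq, GRCm38.p6) lie at chr2:84741116-84741137 and chr16:17124071-17124092, both on the minus strand.
mmu-miR-130a-3p: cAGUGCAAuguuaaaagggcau
mmu-miR-130b-3p: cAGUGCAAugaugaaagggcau
The capitals mark the seed, bases 2 to 8, which is the same in both. Of the 22 bases, 20 are the same.

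Library totals were 10.5 to 17.1 M counts (M, mega) in HSC/MPP and 8.45 to 24.2 M counts in LMPP. A uniform background along the genome, estimated from sensory receptor genes, made up 3.402, 24.3, 12.2 and 15.2% of counts in HSC/MPP replicates 1 to 4, against 8.49, 2.98, 2.14 and 0.379% in LMPP replicates 1 to 4 (exact two-sided permutation test, p = 0.0571). HSC/MPP replicate 2 thus had the highest background, and LMPP replicate 4 the lowest. Gm10800, a single gene, took 8.36, 21.8, 6.42 and 28.8% of counts in HSC/MPP, against 6.76, 1.81, 0.8902 and 0.164% in LMPP, with replicate 3 of HSC/MPP below replicate 1 of LMPP. Identifiers without a symbol took 27.7, 16.1, 32.04 and 11.8% of counts in HSC/MPP, against 38.9, 39.2, 46.03 and 37.4% in LMPP, without overlap (exact two-sided permutation test, p = 0.0286, and 0.0763 after adjustment over 16 library measures). HSC/MPP replicate 1 stood apart in macrophage genes: its summed level of 14 microglia genes was 2249 CPM, against 151 to 264 CPM in the other HSC/MPP libraries and 77.5 to 407 CPM in LMPP. CPM here are counts of a gene per M counts of the genes tested, after TMM scaling, and are not corrected for gene length. HSC/MPP replicate 4 stood apart in the summed level of 16 mature neutrophil genes, 1821 CPM against 118 to 242 CPM in the other HSC/MPP libraries and 86.9 to 117 CPM in LMPP. Its erythroid genes summed to 1578 CPM, against 213 to 343 CPM in the other HSC/MPP libraries and 331 to 560.4 CPM in LMPP. Over log2(CPM + 1), LMPP libraries correlated with each other at 0.937 to 0.983 and HSC/MPP libraries with each other at 0.855 to 0.946. HSC/MPP replicate 1 correlated with the LMPP libraries at 0.949 to 0.959. What part these differences between libraries have in the results was not tested.

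**Figure D1:**
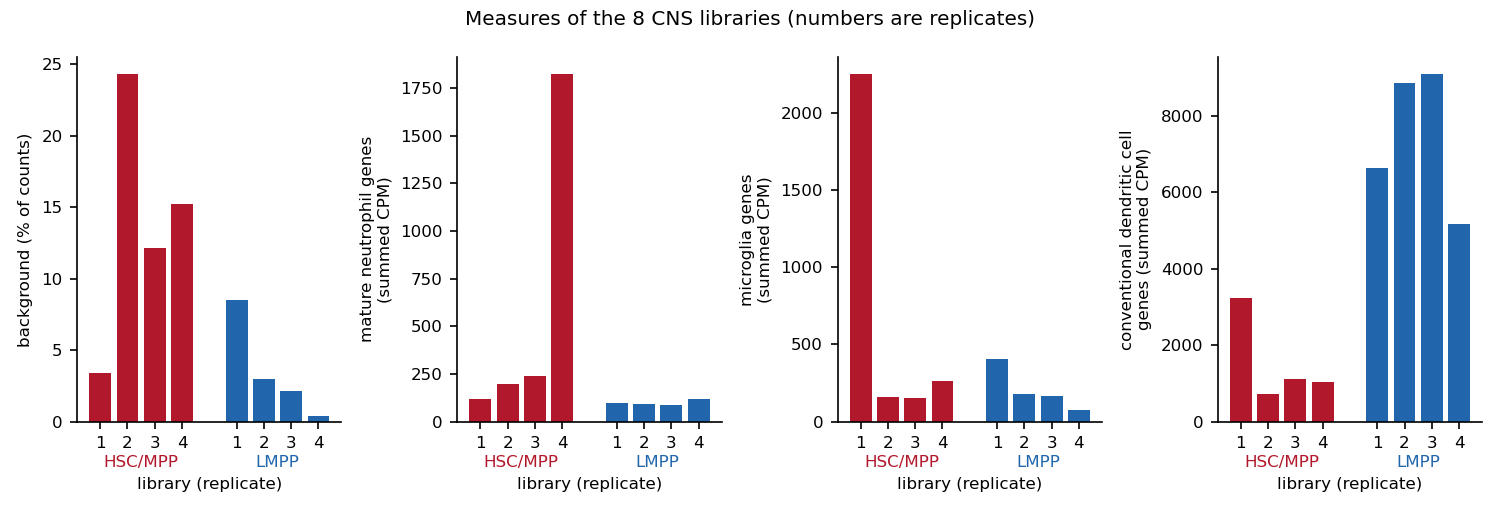
Share of counts given by uniform background (percent), and summed CPM of mature neutrophil, microglia and conventional dendritic cell genes, 1 bar per CNS library, HSC/MPP replicates left and LMPP replicates right. HSC/MPP replicate 2 has the highest background (24.3%), replicate 1 the highest microglia sum (2249 CPM) and replicate 4 the highest neutrophil sum (1821 CPM), while all 4 LMPP libraries lie above all 4 HSC/MPP libraries in dendritic cell genes.

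MHC class II and dendritic cell genes were lower in CNS HSC/MPP than in CNS LMPP, and some mast cell, erythroid and megakaryocyte genes were higher. Ribosomal protein genes were also lower in HSC/MPP. Of 15977 genes above background, 883 were higher in HSC/MPP and 1184 lower, which is 12.9% of the genes tested, 5.53% higher and 7.41% lower (edgeR adjusted p under 0.05), and 36.8% had an unadjusted p under 0.05. Among the called genes, 718 rose (4.49% of those tested) and 491 fell (3.07%) by at least 1 on the log2 scale. The 4 HSC/MPP libraries all lay above the 4 LMPP libraries in 1026 genes, called or not (6.42% of those tested), and all below them in 1007 (6.3%). The median log2 fold change over all genes tested was 0.01. All fold changes are HSC/MPP over LMPP on the log2 scale, with the standard error.

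These counts depended on single libraries. Without HSC/MPP replicate 1 there were 5323 calls and without LMPP replicate 1 there were 3736. Without HSC/MPP replicate 2 or 4 there were 392 and 602, and without LMPP replicate 2, 3 or 4 there were 392, 237 and 1163. A set of 217 genes was called the same way in all 8 of these tests, 74 higher and 143 lower in HSC/MPP. With the estimated background also subtracted from the counts, 185 of them were called. That setting called 599 genes in all, 216 higher and 383 lower. In the main test, genes called higher had a median exon length of 4328 bases. It was 3043 bases in genes called lower and 3169.5 bases in genes not called. A uniform background gives longer genes more counts, and its part in this difference of lengths was not tested. Without HSC/MPP replicates 2 and 4 together, a choice made after seeing the data, 5 genes were called, all higher. With every gene of at least 10 counts in at least 4 libraries kept, including those near background, 24 genes were called, 1 higher and 23 lower. Scaling over that set moved the median fold change of the same 15977 genes to -0.71, and 1977 of the 2067 called genes had the same sign as before.

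**Figure D2:**
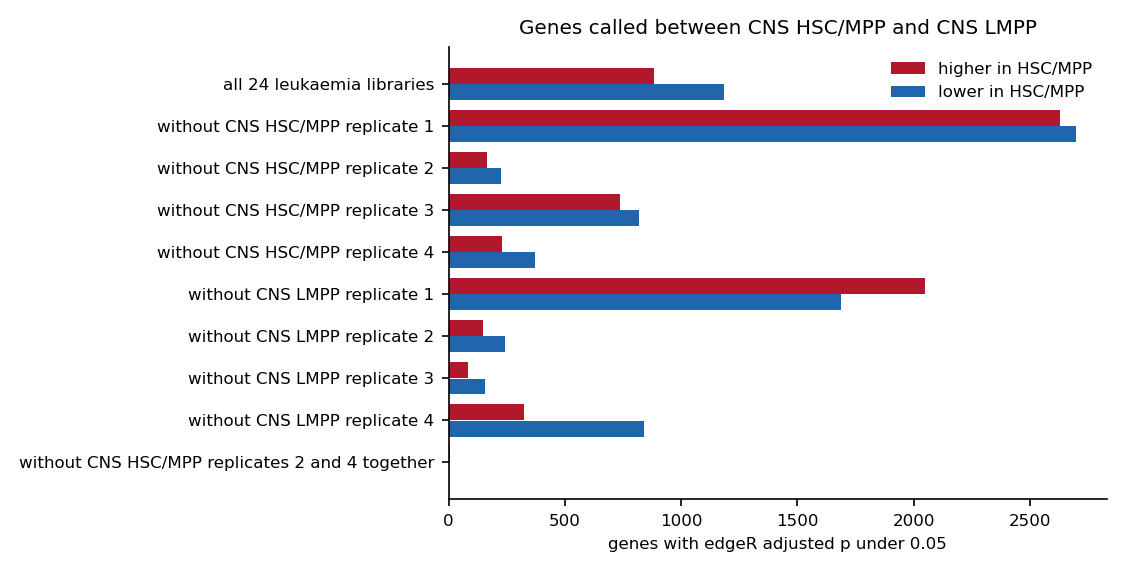
Number of genes with an edgeR adjusted p under 0.05 between CNS HSC/MPP and CNS LMPP, higher (red) and lower (blue) in HSC/MPP, with all 24 leukaemia libraries and with single libraries left out. The total runs from 237 without LMPP replicate 3 to 5323 without HSC/MPP replicate 1, and is 5 without HSC/MPP replicates 2 and 4 together.

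Flt3 divides the 2 gates, so its level checks the sort and is no finding. Flt3 was measured at 151, 33.9, 82.6 and 29.3 CPM in HSC/MPP, against 382, 671, 574 and 596 CPM in LMPP. The groups did not overlap, and HSC/MPP replicate 1 had the highest Flt3 level of its group (log2 fold change -2.90 ± 0.52, edgeR adjusted p = 0.00644). The other gate genes, Ly6a for Sca-1 and Kit, did not pass the test, with log2 fold changes of -0.73 ± 0.46 and -0.48 ± 0.32 (edgeR adjusted p = 0.248 and 0.278).

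Dntt, the terminal transferase that lymphoid precursors use to diversify antigen receptors, was measured at 6.21, 12.6, 34.2 and 14.98 CPM in HSC/MPP, against 94.5, 31.4, 173 and 197 CPM in LMPP. The fold change of Dntt was -2.86 ± 0.72 (edgeR adjusted p = 0.0169), and HSC/MPP replicate 3 lay above LMPP replicate 2. Notch1, the receptor that directs T cell commitment, was measured at 171, 91.7, 149 and 138 CPM in HSC/MPP, against 176, 226, 255 and 363 CPM in LMPP. The groups did not overlap, although HSC/MPP replicate 1 and LMPP replicate 1 were close (-0.89 ± 0.22, edgeR adjusted p = 0.0163). Ighm, the immunoglobulin mu heavy chain, also fell (-1.06 ± 0.27, edgeR adjusted p = 0.0193). These were the 3 of 15 lymphoid priming genes tested that passed, all lower in HSC/MPP, and the list had a median of -0.35, which was 0.06 with protein-coding genes only, a choice made after seeing the data, and ran from -0.59 to -0.05 without 1 library. Il7r, the interleukin 7 receptor, did not pass (1.37 ± 0.60), nor did Satb1, a chromatin organiser (-0.46 ± 0.38). None of the 3 calls held in every test without 1 library: Dntt and Ighm were lost without HSC/MPP replicate 2 or 4 or LMPP replicate 3, and Notch1 without HSC/MPP replicate 2 or LMPP replicate 3 or 4 (edgeR adjusted p of 0.0555 to 0.0822). The list had 5 genes lower without HSC/MPP replicate 1 or LMPP replicate 1.

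Of 4 mature B cell genes tested, 1 was higher and none lower in HSC/MPP. It was Igkc, the constant region of the kappa light chain, at 0.478, 44.8, 23.5 and 2.39 CPM in HSC/MPP, against 0.219, 0.189, 0.588 and 0.245 CPM in LMPP. HSC/MPP replicates 2 and 3 were highest, and replicate 1 lay below LMPP replicate 3 (5.71 ± 1.30, edgeR adjusted p = 0.0127, and 0.0503 without LMPP replicate 2). Cd22 (0.66 ± 0.42), Fcer2a (1.12 ± 0.56) and Ighd (0.67 ± 0.50) did not pass. The summed level of the B cell list was 60.5, 154, 78.3 and 101 CPM in HSC/MPP, against 57.0, 29.1, 30.5 and 23.6 CPM in LMPP, without overlap (exact two-sided permutation test, p = 0.0286, and 0.0763 after adjustment over 16 library measures). This sum includes the 3 of 7 listed genes that were not tested, and background was not subtracted from it. Within HSC/MPP it ranked the libraries as their background share did. In LMPP, replicate 1 was highest and replicate 4 lowest in both. The part of background in the sum was not tested.

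All 10 MHC class II genes tested were lower in HSC/MPP, with a median of -2.54. H2-Eb2 did not lie above background and was not tested. The genes fall into 3 roles: the chains H2-Aa, H2-Ab1 and H2-Eb1 that hold the peptide, the proteins that load it (Cd74, the invariant chain that occupies the groove, H2-DMa, H2-DMb1 and H2-DMb2, which exchange peptides, and H2-Oa and H2-Ob, which restrain that exchange), and Ciita, the transactivator on which transcription of the group depends.

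H2-Ab1 was measured at 919.5, 45.7, 159 and 75.7 CPM in HSC/MPP, against 2666, 4224, 4169 and 1673 CPM in LMPP. Every HSC/MPP library lay below every LMPP library, with replicate 1 highest among HSC/MPP (-3.41 ± 0.88, edgeR adjusted p = 0.0191). H2-Aa (-3.13 ± 0.78), H2-Eb1 (-3.36 ± 0.89) and Cd74 (-3.23 ± 0.85) showed the same order of groups, again with HSC/MPP replicate 1 highest of its group. These 4 genes were not called without HSC/MPP replicate 2 or 4 or LMPP replicate 2 or 3 (edgeR adjusted p of 0.0529 to 0.0722).

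H2-DMb1 was measured at 78.4, 16.1, 24.7 and 26.6 CPM in HSC/MPP, against 193, 290.3, 303 and 132 CPM in LMPP. Its groups did not overlap (-2.65 ± 0.50, edgeR adjusted p = 0.00795). Ciita was measured at 113, 43.8, 38.4 and 29.8 CPM in HSC/MPP, against 306, 315, 396 and 207 CPM in LMPP, also without overlap (-2.44 ± 0.54, edgeR adjusted p = 0.0112). H2-DMb1, H2-DMb2 (-2.08 ± 0.42), H2-DMa (-2.19 ± 0.44), H2-Ob (-1.72 ± 0.36) and Ciita were called in all 8 tests without 1 library. H2-Oa was the smallest of the group (-1.05 ± 0.35, edgeR adjusted p = 0.0485) and lost its call without any of HSC/MPP replicates 2 to 4 or LMPP replicates 2 to 4 (edgeR adjusted p of 0.0554 to 0.167). The count was 5 of 10 without HSC/MPP replicate 2 or 4 or LMPP replicate 2 or 3. Without HSC/MPP replicates 2 and 4 together, none of the 10 was called and their median was -2.11. With background subtracted 9 were called, and with no filter 4. The count was 3 with the background percentage as a covariate and 3 in the 8 CNS libraries alone. None was called with genes near background kept. Medians under these other settings ran from -3.01 to -2.37. Without HSC/MPP replicate 1, the library with the highest macrophage genes, all 10 were called with a median of -3.15. In a bulk sample, fewer cells of a type and less RNA per cell cannot be told apart, here or in the groups that follow.

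Transcription of MHC class II genes is known to run through a shared promoter module, in which the X and Y boxes lie next to each other and the Y box holds an inverted CCAAT. Because the genes moved together, the promoters of 5 of them are shown from 130 to 21 bases before the start of transcription (RefSeq, GRCm38.p6), in the direction of transcription. H2-Aa lies at chr17:34287844-34287953 on the minus strand. The others are on the plus strand: H2-Eb1 at chr17:34305737-34305846, H2-DMb1 at chr17:34153061-34153170, H2-DMb2 at chr17:34145119-34145228 and H2-Ob at chr17:34238775-34238884.
H2-Aa: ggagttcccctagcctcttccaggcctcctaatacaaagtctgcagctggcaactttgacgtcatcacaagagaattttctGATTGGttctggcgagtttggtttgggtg
H2-Eb1: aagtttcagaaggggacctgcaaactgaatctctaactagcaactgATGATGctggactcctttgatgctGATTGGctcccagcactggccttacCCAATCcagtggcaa
H2-DMb1: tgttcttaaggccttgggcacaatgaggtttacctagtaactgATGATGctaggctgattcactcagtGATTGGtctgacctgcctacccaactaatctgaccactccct
H2-DMb2: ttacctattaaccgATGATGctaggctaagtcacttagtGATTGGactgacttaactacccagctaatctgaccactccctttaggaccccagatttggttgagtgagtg
H2-Ob: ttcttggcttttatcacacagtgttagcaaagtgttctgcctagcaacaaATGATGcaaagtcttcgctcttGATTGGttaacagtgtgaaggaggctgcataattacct
The capitals mark 2 motifs that do not overlap each other. The first is GATTGG, which on the other strand reads as CCAATC. The second is ATGATG, which on the other strand reads as CATCAT. Both were searched on both strands and were chosen after the sequences had been seen. In the 250 bases before the start, GATTGG was found in 8 of the 9 promoters annotated for the 8 listed genes in the table, against 14.6% of 32851 promoters. ATGATG was found in 4 of the 9, against 9.39%, and both in 4 of the 9, against 1.08%. A match is a description of the letters only. Because the motifs were chosen from these promoters, no excess over other promoters can be read from the shares. The 5 promoters shown include all 4 that hold both motifs, and the first annotated start of H2-DMa held neither. H2-Ab1 and Ciita were not matched, and Cd74 was not looked up.

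Dendritic cell genes were the next group lower in HSC/MPP. Of 18 conventional dendritic cell genes, 13 were lower and none higher, with a median of -2.26. The other 5 did not pass. Sirpa (1.59 ± 0.59), Cadm1 (0.65 ± 0.60), Cd8a (0.31 ± 0.83) and Itgae (0.07 ± 0.59) were above 0, and Cd83 (-0.94 ± 0.46) below. Tlr11, Anpep, Plbd1, Gcsam, Fcrla, Rtl8c and Spi1, given below, are not on this list. The summed level of the 18 listed genes was 3229, 721, 1124 and 1048 CPM in HSC/MPP replicates 1 to 4, against 6620.2, 8854, 9081 and 5175 CPM in LMPP replicates 1 to 4, without overlap (exact two-sided permutation test, p = 0.0286, the smallest that 4 against 4 allows, and 0.0763 after adjustment over 16 library measures).

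Among receptors and other membrane proteins, Xcr1, the chemokine receptor of cross-presenting dendritic cells, was measured at 9.65, 18.5, 6.42 and 11.2 CPM in HSC/MPP, against 125, 78.8, 171 and 62.04 CPM in LMPP (-3.27 ± 0.53, edgeR adjusted p = 0.00359). In HSC/MPP, a uniform background would give 1.52, 12.7, 4.28 and 10.8 CPM for a gene of this length, so replicates 2 and 4 were close to it. Clec9a, their receptor for dead cells, was measured at 60.8, 16.9, 17.2 and 16.9 CPM in HSC/MPP, against 164, 219.8, 208 and 86.1 CPM in LMPP (-2.59 ± 0.57, edgeR adjusted p = 0.0112). Tlr11, a sensor of microbial profilin, was at 8.41, 11.99, 6.33 and 9.88 CPM in HSC/MPP and also near background there (-3.26 ± 0.66). Anpep, the aminopeptidase CD13, was measured at 10.4, 22.7, 9.86 and 25.7 CPM in HSC/MPP, against 203, 369.99, 283 and 126 CPM in LMPP. The lowest LMPP library, replicate 4, lay well above the highest HSC/MPP library (-3.85 ± 0.65, edgeR adjusted p = 0.00474).

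Among intracellular proteins, Ppt1, a lysosomal thioesterase, was measured at 121, 24.9, 48.9 and 46.2 CPM in HSC/MPP, against 454, 615, 702 and 289 CPM in LMPP, without overlap (-3.09 ± 0.50, edgeR adjusted p = 0.00359). Wdfy4, which cross-presentation needs, fell by a smaller amount (-2.40 ± 0.50, edgeR adjusted p = 0.00935). The lysosomal amidase Naaa (-3.51 ± 0.82) and Plbd1, a phospholipase B-like protein (-3.18 ± 0.81), fell as well. Snx22, a sorting nexin (-3.27 ± 0.64), Gcsam, an adaptor known from germinal centre B cells (-3.52 ± 0.68), and Fcrla, an Fc receptor-like protein (-3.18 ± 0.63), were also among the 14 genes with the largest falls. The largest was Rtl8c, derived from a retrotransposon Gag gene (-4.74 ± 1.13, edgeR adjusted p = 0.0141), at 0.159 to 1.34 CPM in HSC/MPP and 7.17 to 30.2 CPM in LMPP.

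Of the transcription factors that direct dendritic cell fate, Irf8 was measured at 762, 103, 209 and 351 CPM in HSC/MPP, against 1403, 1560.5, 1904 and 1308 CPM in LMPP. The groups did not overlap, with HSC/MPP replicate 1 nearest to LMPP (-2.11 ± 0.48, edgeR adjusted p = 0.0122). Id2, an inhibitor of E proteins (-2.67 ± 0.69), and Batf3, which the cross-presenting subset needs (-2.57 ± 0.60), were lower too, again with replicate 1 highest among HSC/MPP. Spi1, or PU.1, had a smaller fold change and overlapping groups (-0.81 ± 0.27, edgeR adjusted p = 0.0484).

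Xcr1, Clec9a, Tlr11, Anpep, Ppt1, Wdfy4, Snx22, Gcsam, Fcrla and Irf8 kept their calls in all 8 tests without 1 library. Of the 18 genes on the list, 6 did so. Naaa and Batf3 lost theirs without HSC/MPP replicate 2 or LMPP replicate 3 (edgeR adjusted p of 0.051 to 0.0526), and Rtl8c without LMPP replicate 3 (edgeR adjusted p = 0.0541). Plbd1 and Id2 lost theirs without HSC/MPP replicate 2 or 4 or LMPP replicate 2 or 3 (edgeR adjusted p of 0.0546 to 0.0682), and Spi1 without any of replicates 2 to 4 of either type (edgeR adjusted p of 0.0767 to 0.147). The count for the list ranged from 6 without LMPP replicate 3 to 14 without HSC/MPP replicate 1. It was 0 without HSC/MPP replicates 2 and 4 together, with a median of -1.84. With background subtracted 9 of the list were called, and with no filter 8. The count was 6 in the 8 CNS libraries alone. It was 4 with the background percentage as a covariate and 4 with genes near background kept. Medians under these other settings ran from -2.70 to -1.94.

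Of 16 plasmacytoid dendritic cell genes, 2 were lower and none higher, with a median of -0.26 that ran from -0.52 to -0.03 without 1 library. They were Irf7, the interferon regulator, at 122, 28.3, 69.3 and 59.3 CPM in HSC/MPP, against 215, 263, 305 and 183 CPM in LMPP (-1.79 ± 0.38, edgeR adjusted p = 0.00937), and Tlr9, a sensor of DNA (-1.43 ± 0.44, edgeR adjusted p = 0.0367). Irf7 was called in all 8 tests without 1 library, and Tlr9 was lost without HSC/MPP replicate 2, 3 or 4 or LMPP replicate 2 or 3 (edgeR adjusted p of 0.0725 to 0.124). Irf7 is also 1 of 19 type I interferon response genes, of which 3 were lower and none higher. Another was Stat2, which carries the interferon signal to the nucleus (-1.05 ± 0.28, edgeR adjusted p = 0.022). Stat2 was not called without HSC/MPP replicate 2, 3 or 4 or LMPP replicate 2 or 3 (edgeR adjusted p of 0.0502 to 0.0877).

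**Figure D3:**
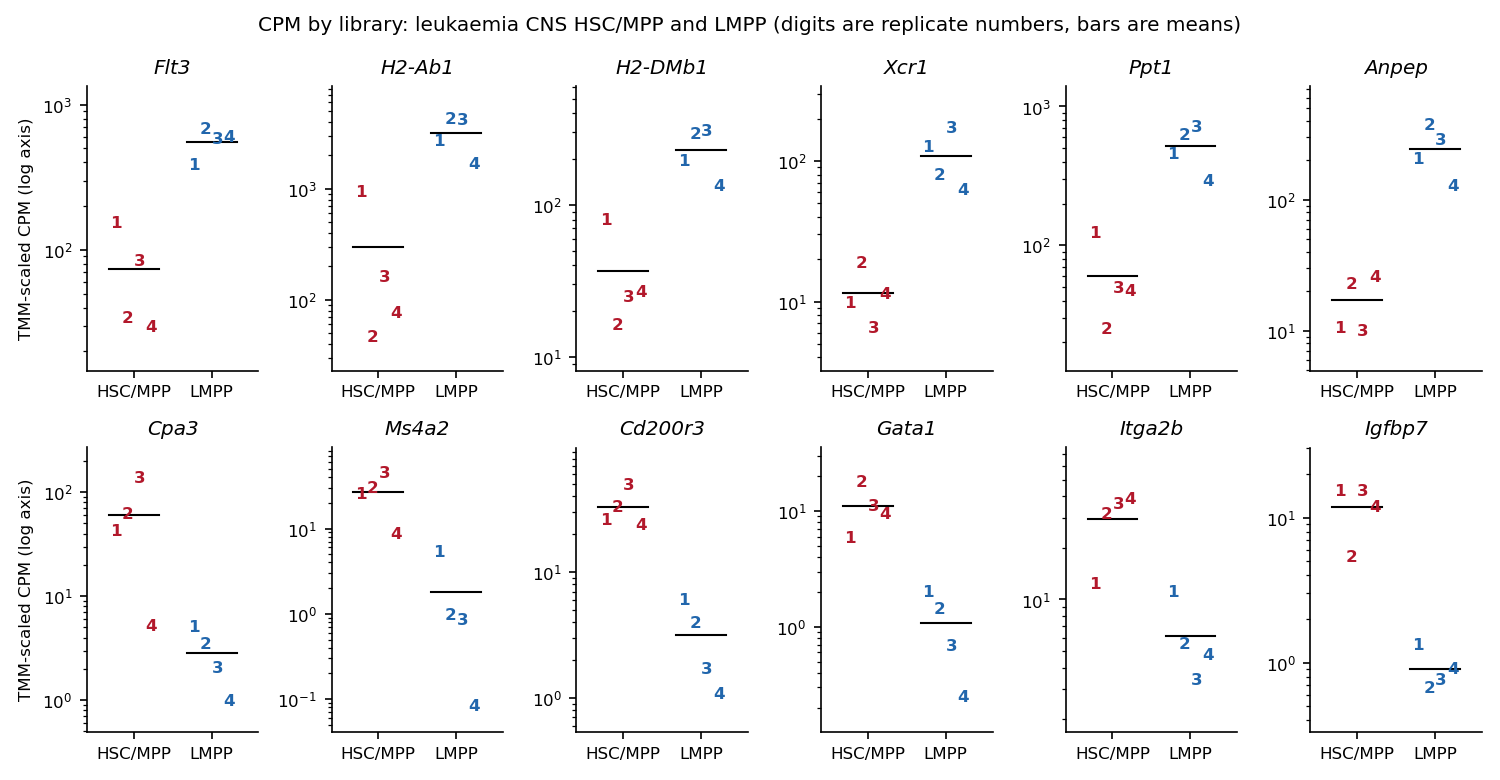
CPM (log axes) of 12 genes in each CNS library, HSC/MPP left in red and LMPP right in blue, with digits for the replicates and bars for the means. The upper 6 genes are lower in all 4 HSC/MPP libraries than in any LMPP library, with replicate 1 highest in HSC/MPP for Flt3, H2-Ab1, H2-DMb1 and Ppt1. The lower 6 are higher in all 4, and for Cpa3 replicate 4 (5.101 CPM) lies just above the LMPP library nearest to it (5.04 CPM).

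Mast cell, basophil and eosinophil genes were among those higher in HSC/MPP: 4 of 7 passed upwards and none downwards, with a median of 2.09. The summed level of the list was 129.7, 232, 306 and 134 CPM in HSC/MPP, against 57.7, 27.4, 29.1 and 15.6 CPM in LMPP, without overlap (exact two-sided permutation test, p = 0.0286, and 0.0763 after adjustment over 16 library measures). This sum includes the 5 of 12 listed genes that were not tested, and background was not subtracted from it. Ms4a2, the beta chain of the high-affinity IgE receptor, was measured at 24.7, 29.4, 44.5 and 8.45 CPM in HSC/MPP, against 5.26, 0.944, 0.8396 and 0.0815 CPM in LMPP. All HSC/MPP libraries lay above all LMPP libraries (4.20 ± 0.87, edgeR adjusted p = 0.00935). Cpa3, the carboxypeptidase of mast cell granules, was measured at 42.1, 61.4, 134 and 5.101 CPM in HSC/MPP, against 5.04, 3.398, 2.02 and 0.978 CPM in LMPP. HSC/MPP replicate 4 and LMPP replicate 1 were nearly level, and the call was lost without LMPP replicate 3 (4.52 ± 1.02, edgeR adjusted p = 0.0122, and 0.0544 without it).

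Hdc, which makes histamine, was higher as well (2.56 ± 0.64, edgeR adjusted p = 0.017). It was measured at 15.1, 27.7, 31.02 and 26.9 CPM in HSC/MPP, where a uniform background would give 2.19, 18.2, 6.15 and 15.5 CPM, and its call was lost without HSC/MPP replicate 2 or LMPP replicate 2 or 3 (edgeR adjusted p of 0.0505 to 0.0735). Il1rl1, the interleukin 33 receptor, had overlapping groups and a level near background in HSC/MPP replicates 2 and 4 (2.09 ± 0.65, edgeR adjusted p = 0.039). It was lost without any of replicates 2 to 4 of either type (edgeR adjusted p of 0.06 to 0.127). The list had 2 calls without HSC/MPP replicate 2 or LMPP replicate 2 and 1 without LMPP replicate 3.

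Cd200r3 and Cd200r4, relatives of the CD200 receptor that are known from mast cells and basophils, were not on the list but were among the 14 genes with the largest rises. Cd200r3 was measured at 25.8, 32.8, 49.01 and 23.6 CPM in HSC/MPP, against 5.92, 3.87, 1.68 and 1.06 CPM in LMPP (3.47 ± 0.54, edgeR adjusted p = 0.00359), and Cd200r4 at 11.8, 11.2, 13.6 and 8.61 CPM in HSC/MPP, against 1.32, 1.13, 0.672 and 0.326 CPM in LMPP (3.77 ± 0.53, edgeR adjusted p = 0.00348). These 2 genes are close relatives and reads may be split between them. Gzmb, a serine protease of cytotoxic granules, was measured at 9.27, 18.7, 12.9 and 6.22 CPM in HSC/MPP, against 1.54, 0.661, 0.4198 and 0 CPM in LMPP (4.35 ± 0.86, edgeR adjusted p = 0.00895). None of the 3 overlapped between the groups, and all kept their calls in the 8 tests without 1 library.

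Igfbp7, a secreted binding protein of insulin-like growth factors, was measured at 15.2, 5.27, 15.2 and 11.8 CPM in HSC/MPP, against 1.32, 0.661, 0.756 and 0.897 CPM in LMPP. The lowest HSC/MPP library, replicate 2, was above the highest LMPP library (3.74 ± 0.54, edgeR adjusted p = 0.00348). Igfbp7, Cd200r3 and Cd200r4 were called in all 8 tests without 1 library and also without HSC/MPP replicates 2 and 4 together.

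Of 13 erythroid genes, 5 were higher and none lower, with a median of 2.00. Fold changes were above 0 in 10 genes and below 0 in 3. Those 3, Hbb-bt (-0.66 ± 0.57), Car2 (-0.13 ± 0.63) and Hbb-bs (-0.02 ± 0.65), did not pass. Gata1, the transcription factor of the erythroid and megakaryocyte lineages, was measured at 5.83, 17.7, 11.03 and 9.41 CPM in HSC/MPP, against 1.97, 1.42, 0.672 and 0.245 CPM in LMPP (3.44 ± 0.67, edgeR adjusted p = 0.00886). Klf1, the factor that turns on adult globin, was measured at 6.78, 8.47, 4.07 and 4.14 CPM in HSC/MPP, against 0.877, 0.755, 0.672 and 0.571 CPM in LMPP (3.03 ± 0.66, edgeR adjusted p = 0.0105). Both had groups that did not overlap and were called in all 8 tests without 1 library, at low levels in HSC/MPP. In HSC/MPP a uniform background would give 0.834, 6.95, 2.35 and 5.900 CPM for Gata1.

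The other called erythroid genes were the water channel Aqp1 (3.20 ± 0.89), the haem synthesis enzyme Alas2 (2.00 ± 0.59) and the carbonic anhydrase Car1 (3.41 ± 1.05). Alas2 was at 3.73, 5.43, 5.33 and 36.5 CPM in HSC/MPP, so replicate 4, the library with the highest erythroid sum, set its mean. Without that library the fold change of Alas2 was 0.63 and the median of the list 1.22. Each of the 3 lost its call without HSC/MPP replicate 4, and also without LMPP replicate 2, 3 or 4 (edgeR adjusted p of 0.0509 to 0.346). Aqp1 and Car1 lost it without HSC/MPP replicate 2 as well, and Car1 without HSC/MPP replicate 3. The count for the list was 9 without HSC/MPP replicate 1, 8 without LMPP replicate 1, 3 without HSC/MPP replicate 2, and 2 without HSC/MPP replicate 4 or LMPP replicate 2, 3 or 4. The summed level of the erythroid list overlapped between the groups (exact two-sided permutation test, p = 0.971).

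Of 8 megakaryocyte genes tested, 2 were higher and none lower, with a median of 0.57, which was -0.17 with genes near background kept, above the -0.71 of all genes there. Itga2b, the integrin CD41 of platelets and early progenitors, was measured at 12.2, 31.2, 35.6 and 38.4 CPM in HSC/MPP, against 10.97, 5.47, 3.36 and 4.73 CPM in LMPP. The groups did not overlap, with HSC/MPP replicate 1 just above LMPP replicate 1 (2.30 ± 0.42, edgeR adjusted p = 0.00722), and the call held in all 8 tests without 1 library. Gp1ba, a platelet receptor of von Willebrand factor, had overlapping groups (1.42 ± 0.42, edgeR adjusted p = 0.0336) and lost its call without HSC/MPP replicate 2 or 4 or LMPP replicate 2, 3 or 4 (edgeR adjusted p of 0.0695 to 0.159).

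Of 10 stem cell genes tested, 2 were higher and 1 lower, with a median of 0.36 and of -0.32 with genes near background kept. Over all genes tested, 5.53% were higher and 7.41% lower. Tal1, a transcription factor of early blood formation, was higher (2.39 ± 0.57, edgeR adjusted p = 0.014). It was at 7.36, 20.1, 8.14 and 14.2 CPM in HSC/MPP, where a uniform background would give 1.498, 12.5, 4.21 and 10.6 CPM. Ctnnal1 was also higher (2.02 ± 0.54, edgeR adjusted p = 0.0221) and Sult1a1 lower (-2.81 ± 0.92, edgeR adjusted p = 0.0475), with overlapping groups. All 3 lost their calls without HSC/MPP replicate 2 or LMPP replicate 3 (edgeR adjusted p of 0.0526 to 0.204), and Ctnnal1 and Sult1a1 also without HSC/MPP replicate 4 or LMPP replicate 2. Sult1a1 lost its call without HSC/MPP replicate 3 and had a fold change of -1.68 without LMPP replicate 2, and Ctnnal1 without LMPP replicate 4. Gata2, which stem cells need, was at 86.6, 124, 274 and 33.2 CPM in HSC/MPP, against 38.2, 39.2, 34.7 and 67.3 CPM in LMPP, and did not pass (1.53 ± 0.53, edgeR adjusted p = 0.0546). Mecom, another stem cell regulator, did not pass either (0.53 ± 0.35, edgeR adjusted p = 0.273). The remaining 12 of the 22 listed stem cell genes did not lie above background in enough libraries to be tested.

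Granule genes rose in part. Of 13 azurophil granule and granulocyte progenitor genes, 5 were higher and none lower, with a median of 1.49. Elane, or neutrophil elastase, was measured at 12.6, 8.63, 8.77 and 218 CPM in HSC/MPP, against 2.85, 1.699, 1.18 and 1.47 CPM in LMPP. Replicate 4 alone made up most of the HSC/MPP mean, although the groups did not overlap (5.19 ± 1.46, edgeR adjusted p = 0.0274). Without HSC/MPP replicate 4 its fold change was 2.59 and it was not called, nor was it without LMPP replicate 2, 3 or 4 (edgeR adjusted p of 0.0659 to 0.194). Mpo, or myeloperoxidase, did not pass (1.42 ± 0.56, edgeR adjusted p = 0.0803).

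Csf3r, the receptor of granulocyte colony-stimulating factor, was higher (1.10 ± 0.29, edgeR adjusted p = 0.0196), as were Gfi1, a transcriptional repressor that granulocytes need (1.49 ± 0.46), Gstm1, a glutathione transferase (1.51 ± 0.46), and Ms4a3, a marker of granulocyte-monocyte progenitors (2.81 ± 0.87). Without HSC/MPP replicate 4, and likewise without LMPP replicate 2 or 3, none of the 13 was called. There were 2 calls without HSC/MPP replicate 2 and 3 without HSC/MPP replicate 3 or LMPP replicate 4. Of 15 mature neutrophil genes tested, 3 were higher and none lower, with a median of 3.94 that was 1.80 without HSC/MPP replicate 4, where none was called. The count was 12 without HSC/MPP replicate 1 and 0 without HSC/MPP replicate 2 or LMPP replicate 2, 3 or 4. S100a9, an abundant protein of neutrophils, was at 7.84, 5.43, 13.2 and 399 CPM in HSC/MPP and 3.29, 3.96, 3.53 and 3.098 CPM in LMPP and did not pass (4.93 ± 1.73, edgeR adjusted p = 0.0571). C3, the central complement component, and Gda, guanine deaminase, were also highest in HSC/MPP replicate 4. C3 was at 70.6, 59.8, 88.9 and 419 CPM in HSC/MPP and Gda at 8.79, 23.98, 11.03 and 101 CPM (3.54 ± 0.99 and 3.35 ± 1.10). The fold change of Gda was 2.07 without that library. Both lost their calls without it or without LMPP replicate 2, 3 or 4, and Gda without HSC/MPP replicate 2 (edgeR adjusted p of 0.0668 to 0.205).

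Microglia and border macrophage genes gave 1 call of 13 and 1 of 8, both higher in HSC/MPP, although HSC/MPP replicate 1 held most of the signal. The share called higher over all genes tested was 5.53%. Olfml3 was at 155, 19.7, 12.03 and 25.3 CPM in HSC/MPP (2.80 ± 0.88, edgeR adjusted p = 0.0405) and Clec10a at 41.8, 22.2, 23.9 and 20.7 CPM (0.88 ± 0.29, edgeR adjusted p = 0.049). Neither was called without HSC/MPP replicate 1, 2 or 4 or LMPP replicate 2, 3 or 4 (edgeR adjusted p of 0.0577 to 0.194), nor was Clec10a without HSC/MPP replicate 3. The fold change of Olfml3 was 1.34 without HSC/MPP replicate 1. The median of the microglia list was 1.84, and -0.26 without HSC/MPP replicate 1. P2ry12, a receptor that defines microglia, was at 115, 4.64, 2.26 and 2.55 CPM in HSC/MPP and 12.7, 3.398, 4.62 and 0.978 CPM in LMPP and did not pass. No neuron gene lay above background.

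**Figure D4:**
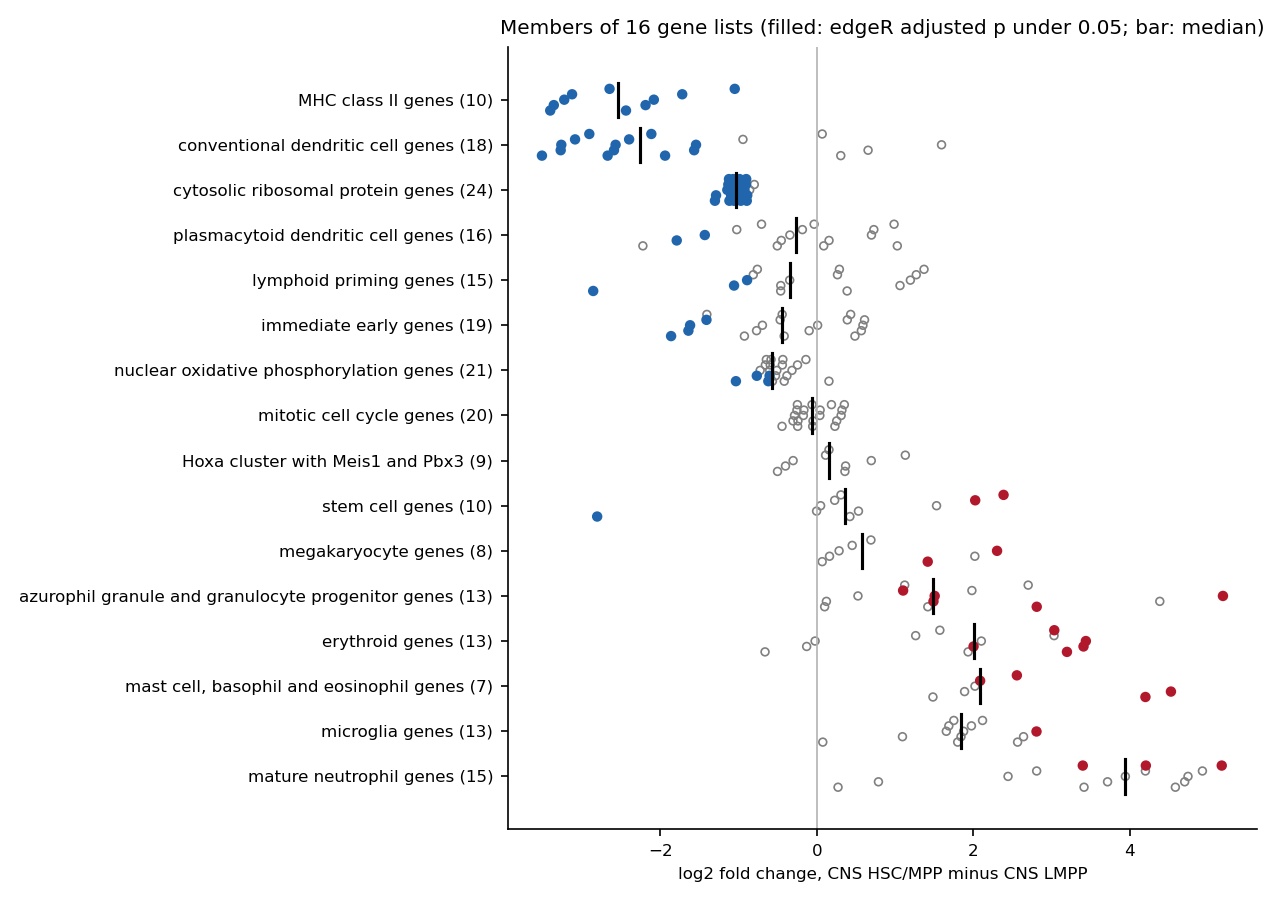
Log2 fold change (CNS HSC/MPP over CNS LMPP) of each tested member of 16 gene lists, 1 point per gene, filled where the edgeR adjusted p was under 0.05, with a bar at the list's median and the number of genes in brackets. MHC class II (median -2.54) and ribosomal protein genes (-1.03) lie to the left of 0, as do 14 of 18 conventional dendritic cell genes (-2.26). Mast cell (2.09), erythroid (2.00) and mature neutrophil genes (3.94) lie mostly to the right.

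Transcription factors of other fates and receptors were mixed. Of 28 fate transcription factors tested, 5 were higher and 3 lower. Besides Gata1, Tal1 and Gfi1, those higher were Zeb2 and Ikzf2, and those lower were Irf8, Id2 and Spi1. Zeb2, a repressor and a target of Kmt2a fusions, was measured at 217, 124, 185 and 216 CPM in HSC/MPP, against 83.6, 61.1, 60.9 and 96.5 CPM in LMPP, with groups that did not overlap (1.29 ± 0.25, edgeR adjusted p = 0.00895), and was called in all 8 tests without 1 library. It was the only one of 15 tested fusion targets outside Hoxa that passed. Ikzf2, or Helios, was lost without HSC/MPP replicate 2 or 3 or LMPP replicate 2 or 3 (1.64 ± 0.44, edgeR adjusted p = 0.0233, and 0.0607 to 0.0878 without 1 of these). Eng, or endoglin, a receptor of the TGF-beta family, was measured at 20.8, 22.2, 22.9 and 11.96 CPM in HSC/MPP, against 7.68, 5.47, 5.63 and 3.02 CPM in LMPP and kept its call throughout these 8 tests (1.86 ± 0.39, edgeR adjusted p = 0.00935). Of 9 genes of the Hoxa cluster with its partners Meis1 and Pbx3, the programme that Kmt2a fusions maintain, none passed, with a median of 0.15 that was -0.57 with genes near background kept and -0.08 without HSC/MPP replicate 3. Hoxa9 was measured at 174, 104, 218 and 52.9 CPM in HSC/MPP, against 127, 153, 199.9 and 199 CPM in LMPP (-0.30 ± 0.38, edgeR adjusted p = 0.567). The groups overlapped, and HSC/MPP replicate 4 was lowest.

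Among genes that cells of every type use, cytosolic ribosomal proteins fell together. Of 24 genes, 22 were lower and none higher, with fold changes between -1.30 and -0.80 and a median of -1.03. Rplp1, a protein of the ribosomal stalk, was measured at 404, 132, 265 and 224 CPM in HSC/MPP, against 466, 678, 735 and 627 CPM in LMPP (-1.29 ± 0.26, edgeR adjusted p = 0.00899). The groups did not overlap. HSC/MPP replicate 1 lay closest to LMPP and replicate 2, the library with the highest background, lowest.

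The number of ribosomal protein genes called was 24 without HSC/MPP replicate 1, 6 without replicate 2 and 8 without replicate 4. It was 6 without LMPP replicate 2 and 3 without LMPP replicate 3, and Rplp1 was called in all 8 tests. With background subtracted the median was -0.62 and 15 were called. With the background percentage as a covariate it was -0.51 and 4 were called. None was called in the 8 libraries alone or with genes near background kept. Ribosomal protein genes have near-identical copies in the genome, so their counts are uncertain.

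No cell cycle gene passed the test among 20 mitotic and 19 DNA replication genes, with medians of -0.06 and -0.38. The mitotic median was 0.03 with DESeq2 size factors and 0.20 with background subtracted. The replication median was -0.09 with background subtracted and 0.0023 with the background percentage as a covariate, and 5 of the 19 replication genes were lower without HSC/MPP replicate 1. Of 21 nuclear oxidative phosphorylation genes, 4 were lower and none higher, with a median of -0.57. None of these was called without HSC/MPP replicate 2 or LMPP replicate 2 or 3, 1 was without HSC/MPP replicate 3 or 4 or LMPP replicate 4, and 16 were without HSC/MPP replicate 1. With background subtracted none was called and the median was -0.20. Of 20 hypoxia and glycolysis genes 1 was lower, against 7.41% of all genes tested. None of the 20 was called lower without HSC/MPP replicate 2 or 4 or LMPP replicate 2, 3 or 4. Of 19 immediate early genes, 4 were lower and none higher. Jund, a subunit of the AP-1 factor, was measured at 27.8, 5.75, 17.99 and 14.7 CPM in HSC/MPP, against 35.97, 62.9, 70.02 and 35.95 CPM in LMPP (-1.62 ± 0.35, edgeR adjusted p = 0.00984). It was called in all 8 tests, whereas Junb (-1.41 ± 0.33), Ier5 (-1.86 ± 0.43) and Btg2 (-1.64 ± 0.41) were not called without LMPP replicate 3 (edgeR adjusted p of 0.0518 to 0.0771 over their lost calls). Junb and Btg2 were also not called without HSC/MPP replicate 2, and Junb without LMPP replicate 2. Of 17 cholesterol synthesis genes, 1 was higher and 1 lower. The lower one was Srebf2, the transcription factor of sterol synthesis, which was called in all 8 tests (-1.37 ± 0.28, edgeR adjusted p = 0.00918).

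The BM libraries of the same mice allow HSC/MPP and LMPP to be compared outside the CNS. Of 15977 genes, 6 were higher and 5 lower in BM HSC/MPP than in BM LMPP, which is 0.0688% (0.0376% higher, 0.0313% lower, edgeR adjusted p under 0.05), and 3501 (21.9%) had an unadjusted p under 0.05. DESeq2 called 499. Leaving out 1 library gave 0 calls without BM HSC/MPP replicate 2, BM LMPP replicate 2, 3 or 4 or CNS LMPP replicate 2 or 3, and 74 without BM LMPP replicate 1. The genes called in CNS had the same sign in BM in 863 of 883 that were higher and 1179 of 1184 that were lower. The CNS and BM libraries of a cell type come from the same mice, so this is no independent repeat. Background also differed between cell types in BM: 9.03, 8.91, 8.93 and 26.5% of counts in HSC/MPP, against 2.05, 1.35, 0.472 and 6.32% in LMPP. BM LMPP replicate 3 had 1.91 M counts. The part of background in the shared signs was not tested, and signs shared over all genes tested were not counted.

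The difference between the CNS and BM contrasts was tested directly, and no gene passed (365 with an unadjusted p under 0.05, which is 2.28%). DESeq2 called none either. Of the 5 genes with the smallest p, Igfbp7 had 3.74 in CNS and 1.07 ± 0.49 in BM, a difference of 2.68 ± 0.71 (edgeR unadjusted p = 0.000995, adjusted p = 1.00). Zeb2 had 1.29 in CNS and 0.11 ± 0.25 in BM (edgeR unadjusted p of the difference = 0.00282). Pygo2, a Wnt cofactor, had -1.07 in CNS and -0.01 ± 0.22 in BM (edgeR unadjusted p of the difference = 0.00202). Tmem134 and the fatty acid transport protein Slc27a3 had differences of -0.96 ± 0.29 and -2.91 ± 0.84. These are values only, since none passed.

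The same cell type difference in non-leukaemic control BM was tested in its own table of libraries, with 60 genes higher and 186 lower of 11411 tested, 2.16% (edgeR adjusted p under 0.05). With the mouse as a block the number was 97, 30 higher and 67 lower. Leaving out 1 control library gave 75 without LMPP replicate 3 to 962 without LMPP replicate 1. Flt3 had a fold change of -2.71 ± 0.26 there (edgeR adjusted p = 1.51e-05) and -2.81 ± 0.52 in leukaemia BM (edgeR adjusted p = 0.0402). Dntt had -4.28 ± 0.33 in control BM (edgeR adjusted p = 2.09e-06), and Gata2, which did not pass in CNS, had 1.38 ± 0.13 in control BM (edgeR adjusted p = 1.13e-05).

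The MHC class II list had medians of -2.54 in leukaemia CNS, -1.68 in leukaemia BM and -0.81 in control BM, with 10 of 10, 0 of 10 and 4 of 8 tested genes lower. In control BM 1.63% of all genes tested were lower. H2-Ab1 fell in control BM too (-2.19 ± 0.32, edgeR adjusted p = 0.000956), whereas H2-DMb1 did not pass there (-0.10 ± 0.21, edgeR adjusted p = 0.823). Ms4a2, Cpa3 and Gata1 had 0.04 ± 0.31, 0.29 ± 0.30 and 0.36 ± 0.22 in control BM and did not pass. Mast cell genes had medians of 2.09 in leukaemia CNS, 2.09 in leukaemia BM and 0.19 in control BM. Ribosomal protein genes had medians of -1.03, -0.51 and -0.46 in the same order, with none of 24 called in either BM test. In that order, mature neutrophil genes had medians of 3.94, 0.08 and -0.06. Plasmacytoid dendritic cell genes had -0.26, -1.24 and -0.10, and lymphoid priming genes -0.35, 0.15 and -0.73. The difference between leukaemia and control in these contrasts was not tested.

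**Figure D5:**
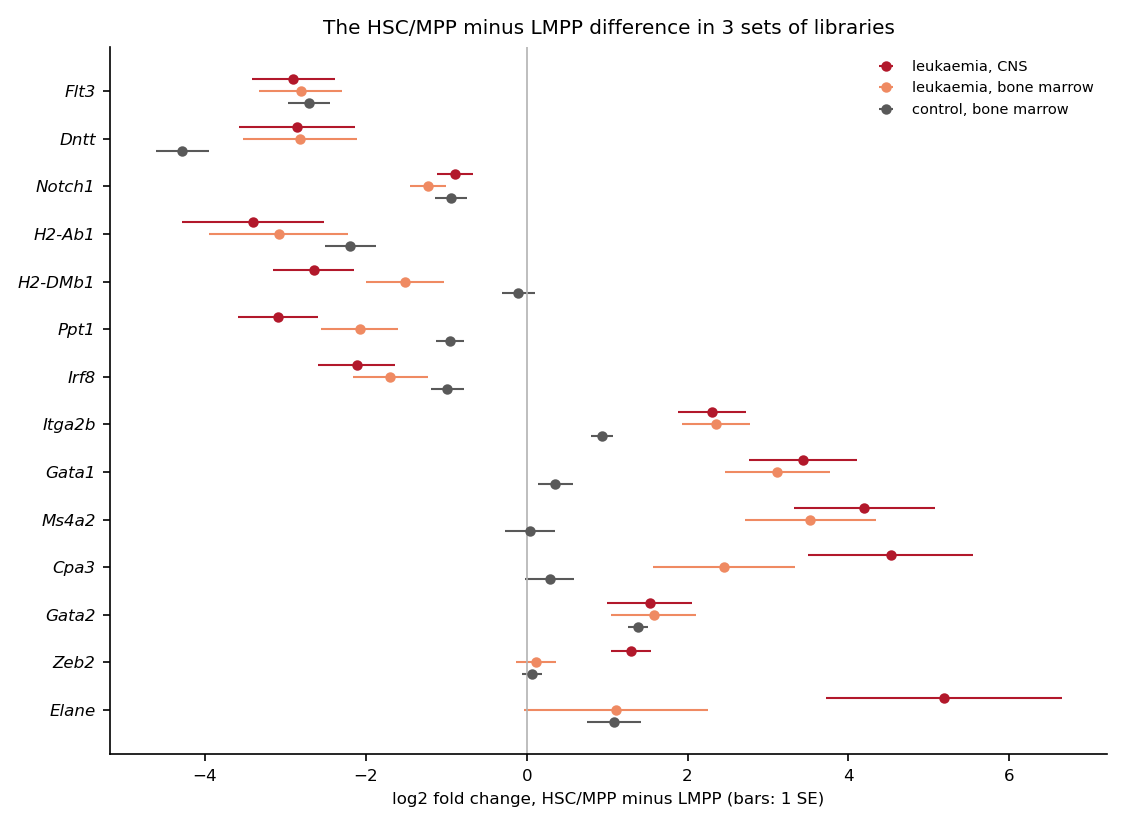
Log2 fold change of HSC/MPP over LMPP (bars, 1 SE) for 14 genes in leukaemia CNS, leukaemia BM and control BM, from top to bottom within each gene. Flt3, Dntt and Notch1 lie left of 0 in all 3 sets, while Gata1, Ms4a2 and Cpa3 lie at 3.44, 4.20 and 4.52 in leukaemia CNS and at 0.36, 0.04 and 0.29 in control BM. Background made up 13.7 to 27.1% of counts in the control libraries shown, and its part was not tested.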

How the data were processed

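The authors deposited whole-number counts per gene, 1 table for 24 leukaemia and 1 for 12 control libraries, with 55414 identifiers each. The table names call them normalised, but totals differ between libraries. Per the labels' protocols, a stranded total RNA kit for very small inputs was used on RNA from sorted cells. The submitters' processing notes name DESeq2 and GRCm39. The aligner, counter and strand setting were not given in the sources used here, so overlapping and antisense genes are uncertain. Symbols (52081 identifiers) and exon lengths (52133) came from a GRCm38 annotation by identifier.

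Background per kb was set by sensory receptor genes, leaving out the 5% (share 0.05) highest in a library. Genes with a count over 3 times background plus 10 counts in at least 4 libraries were tested with edgeR 4.0.16 (quasi-likelihood, TMM, Benjamini-Hochberg, threshold 0.05) in R 4.3.3, 24 leukaemia libraries together and controls by themselves, and checked on simulated data. The edgeR p-values measure spread between libraries. The leukaemia fit treated the BM and CNS libraries of 1 mouse as independent, and the control fit did so for the libraries of 1 mouse. In the 8 CNS libraries alone, each from a different mouse, 88 genes were called. Library measures were compared with exact permutation tests (numpy 2.4.6). Alternatives used limma 3.58.1, DESeq2 1.42.0, other filters, background corrections and left-out libraries. The members and gene lists were chosen with earlier results of these data known. Genes were named by rule: the 14 largest changes each way that were called, did not overlap and averaged at least 10 CPM in the higher group, plus up to 4 genes per list by smallest p. Some genes that the rule names are not reported here.

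BM and CNS libraries of a cell type and number share a mouse ID apart from its last letter: their deviations from group means correlated at -0.19 to 0.61 in HSC/MPP, -0.29 to 0.43 in LMPP and 0.14 to 0.70 in LK. Control libraries of 1 mouse correlated at -0.22 to -0.02.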

Additional observations from a re-analysis of the deposited data

Results flagged for a closer look

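Of 236 groups of 4 values examined, 32 had a highest value far from the other 3, measured by its gap against the range of the group. Chance gives about 1 in 20 groups where values are normally distributed. The CPM were not log-transformed for this and need not be normal, so no excess can be read from the count. The values often come from the same libraries and are not independent.

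In HSC/MPP, replicate 1 was far above replicates 2 to 4 in MHC class II genes: Cd74 (1638 CPM), H2-Ab1 (919.5 CPM), H2-Aa (513 CPM), H2-Eb1 (396 CPM), Ciita (113 CPM), H2-DMb1 (78.4 CPM) and H2-DMb2 (32.01 CPM). The same library was far above them in Plbd1 (264 CPM), Naaa (229.6 CPM), Id2 (142 CPM), Clec9a (60.8 CPM) and Batf3 (15.3 CPM), and in the sum of conventional dendritic cell genes (3229 CPM). It was also far above them in the macrophage genes C1qb (293 CPM), Olfml3 (155 CPM), P2ry12 (115 CPM) and Clec10a (41.8 CPM), with sums of 2249 CPM for microglia and 1339 CPM for border macrophage genes.

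In HSC/MPP, replicate 4 was far above replicates 1 to 3 in C3 (419 CPM), S100a9 (399 CPM), Elane (218 CPM), Gda (101 CPM) and Alas2 (36.5 CPM), with sums of 1821 CPM for mature neutrophil and 1578 CPM for erythroid genes.

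In LMPP, Ms4a2 (5.26 CPM) and Gp1ba (8.99 CPM) stood far above the rest in replicate 1, Sult1a1 (193 CPM) in replicate 2, Igkc (0.588 CPM) in replicate 3, and Cd34 (223 CPM) and Gata2 (67.3 CPM) in replicate 4.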

How the results depend on the processing

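The CNS count of 2067 genes became 4047 with DESeq2 (2343 higher, 1704 lower), 4541 with limma-voom and sample quality weights, 599 with background subtracted and 167 with the background percentage as a covariate. It became 24 with at least 10 counts in 4 libraries, 85 with no filter, 1368 in the 12 CNS libraries alone and 88 in the 8 of HSC/MPP and LMPP alone. Leaving out 1 library gave 237 to 5323. Without HSC/MPP replicates 2 and 4 together it was 5, and without HSC/MPP replicate 1 and BM LMPP replicate 3 together 5530. All 2067 genes had the same sign with the covariate, and 2040 with background subtracted. The cause of these changes was not tested. Il1rap, an interleukin receptor subunit called higher at 1.06, had -0.11 with background subtracted. For named genes, 1160 values under other settings stayed on their side of the threshold, 436 lost the call, 16 gained one and 1, that of Il1rap, changed the sign of a called gene. Without 1 library, 584 stayed, 220 lost the call and 4 gained one. Among those that stayed, 15 values of 8 uncalled genes under other settings and 3 of 3 without 1 library had the other sign.

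The BM count of 11 became 499 with DESeq2, 188 with limma-voom, 27 with limma-trend, 22 with the first field of the mouse ID as a term, 24 without CNS HSC/MPP replicates 2 and 4, and 0 with at least 10 counts, with background subtracted or as a covariate. Leaving out 1 library gave 0 to 74. The difference between the CNS and BM contrasts gave 0 calls in all alternatives run. The control count of 246 became 461 with DESeq2, 76 with at least 10 counts, 106 with no filter and 97 with the mouse as a block, and 75 to 962 without 1 library.

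The replicate block between CNS HSC/MPP and LMPP, whose equal numbers name different mice, gave 1500 calls in CNS (513 higher, 987 lower), 7 in BM and 0 for their difference. Libraries of equal number correlated at -0.67 to 0.10, and 0 of 4 correlated best with their own number.

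Without 1 library, 3 against 4 allow no p below 0.0571. The differences (HSC/MPP minus LMPP) then ran from -21.8 to -15.1% of counts for identifiers without a symbol, and in summed CPM from 86.7 to 654.0 for neutrophil, 114 to 177 for megakaryocyte, 133 to 191 for mast cell, 45.0 to 76.1 for B cell and -6655 to -5352.5 for conventional dendritic cell genes.

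Depth was 8.45 to 24.2 M counts in the CNS libraries compared. In HSC/MPP replicates 2 and 4, where background made up 24.3 and 15.2% of counts, genes at a few CPM lay close to it.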
